A study of Mus musculus with 18 samples.

Results

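The 10 genes described here are regulators and targets of the stress transcription factor ATF4, together with the hormone gene Fgf21: Atf4, Atf5, Atf3, Ddit3, Nupr1, Trib3, Chac1, Ppp1r15a, Fgf21 and Gdf15. They were measured in C2C12 myotubes, the multinucleated fibres that form when the mouse myoblast line C2C12 is differentiated, on Illumina mouse whole-genome bead arrays. Cultures stood in medium with 2% horse serum and received either 1 uM dexamethasone (Dex, a synthetic glucocorticoid) or ethanol, the vehicle, at 0.01% of the volume. The 18 arrays form 4 groups, with 4 ethanol and 4 Dex arrays after 6 h and 5 of each after 24 h. No label says whether arrays of a group came from separate cultures, so the spread between them may be technical. The design text speaks of triplicates, and all numbered samples were used.

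The genes were chosen by their symbol and by what they are known to do, with the Dex-against-ethanol values of both times already known. The contrasts of Dex with ethanol are therefore given for these genes as a description, without p-values, and nothing is concluded from them. Of the 10 genes, 9 had at least 1 probe under their symbol, 13 probes in all of the 45281 on the array; Gdf15 had none in the annotation used and is not analysed here. A gene with several probes is represented by its brightest one, which left 19057 genes for the model, and the other 4 probes are given separately. Values are linear intensities as deposited, a fold change is the difference of mean log2 intensity, and a gene is called when its limma p-value, adjusted over all genes by the Benjamini-Hochberg method, is under 0.05.

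ATF4 is the main effector of the integrated stress response. Several kinases sense a lack of amino acids, unfolded protein in the endoplasmic reticulum, haem shortage or viral RNA and phosphorylate the translation initiation factor eIF2; most protein synthesis slows, while the Atf4 messenger is translated more. ATF4 then switches on genes of amino acid supply and a second tier of stress regulators, of which CHOP (Ddit3), ATF3, ATF5, the pseudokinase TRIB3 and the phosphatase subunit GADD34 (Ppp1r15a) are the best known. In muscle this response is also known as a source of circulating FGF21 and GDF15. Because ATF4 is controlled largely by translation, its messenger level is not a measure of its protein.

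ATF4 binds composite sites in which its own recognition letters adjoin those of a C/EBP factor, TGATGNAA. RefSeq promoter windows of assembly GRCm38.p6, 250 bases before to 50 after a start, were at hand for all 10 genes, with 12 windows because Atf5 and Gdf15 had more than one. Searched on both strands, TGATGNAA stood in the windows of Fgf21, Trib3, Chac1, Nupr1 and Atf3. Over the whole collection it stood in 3.97% of all 32851 windows and in 4.51% of the 27025 genes with a window. The stricter TGATGCAA, which is contained in the first, stood in those of Fgf21, Chac1, Nupr1 and Atf3, against 0.895% of all windows and 1.03% of the genes with a window. In each of the 5 genes the match read on the strand opposite to the gene. The stretches are shown because they are what these genes share in sequence; capitals mark the match, written in the direction of the gene, and each has 26 bases on either side except Trib3, whose match lies just after the start, at bases 15 to 22 of the transcribed part.
Fgf21, chr7:45615596-45615655, minus strand: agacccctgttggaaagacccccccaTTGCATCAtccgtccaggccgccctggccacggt
Chac1, chr2:119351023-119351082, plus strand: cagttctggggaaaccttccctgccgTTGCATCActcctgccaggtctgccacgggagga
Nupr1, chr7:126625547-126625606, minus strand: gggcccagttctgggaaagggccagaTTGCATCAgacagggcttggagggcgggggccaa
Atf3, chr1:191183410-191183469, minus strand: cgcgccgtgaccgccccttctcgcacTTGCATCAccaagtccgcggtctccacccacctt
Trib3, chr2:152344028-152344057, minus strand: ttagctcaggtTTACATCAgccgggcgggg

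Relative to the start, the matches lay at bases -139 to -132 in Fgf21, -193 to -186 in Chac1 and -110 to -103 in both Nupr1 and Atf3. The whole 250 bases before the Fgf21 start (chr7:45615491-45615740, minus strand) are given with the same match in capitals. This gene was chosen because it had the lowest log2 difference of Dex from ethanol at 24 h in the set.
Fgf21 promoter: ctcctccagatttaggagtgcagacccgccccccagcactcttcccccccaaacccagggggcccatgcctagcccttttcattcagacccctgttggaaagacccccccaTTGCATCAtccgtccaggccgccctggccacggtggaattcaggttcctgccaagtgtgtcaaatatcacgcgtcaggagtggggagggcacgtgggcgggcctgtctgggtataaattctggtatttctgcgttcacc
The palindromic element bound by the glucocorticoid receptor, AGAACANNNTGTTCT, stood in no window of the 10 genes and in 0.0091% of all windows. One arm of it, AGAACA, stood in none of the 10 genes either, against 19.0% of all windows and 21.3% of the genes with a window. A match or its lack describes these letters in these windows only.

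Within each time the arrays were closely matched in level, with medians from 99.8 to 100.4 at 6 h and from 85.2 to 86.8 at 24 h, so levels are compared within a time and not between times. The known targets of the receptor responded: Fkbp5, a co-chaperone of the receptor, rose by 3.93 (SE 0.07, limma adjusted p = 2.67e-21) at 6 h and by 3.40 (SE 0.07, limma adjusted p = 2.76e-21) at 24 h on the log2 scale. Of 10 myotube markers 9 had a probe, and their summed intensity ran from 100006 to 111257 in the 24 h ethanol group and from 98171 to 105025 with Dex. At 24 h 1 of the 9 fell (Myog, -0.32), and Ckm (0.30) and Actn2 (0.45) rose. All measured adipocyte, osteoblast and macrophage markers, 4 of each, stayed below 2 times the array median at 24 h, as did the myoblast markers Pax7 and Myf5; the third measured myoblast marker, Top2a, read 190 with ethanol and 166 with Dex. In such bulk RNA, fewer cells expressing a gene and less RNA per cell cannot be told apart.

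At 24 h all 9 measured genes read lower with Dex than with ethanol, by log2 differences from -2.29 to -0.18 with a median of -0.70, while the median over all genes was -6.27e-05. The differences were largest in Fgf21, Trib3 and Chac1 and smallest in Ppp1r15a. The groups did not overlap in 7 of the 9, where 7.86% of all genes had a Dex group wholly below ethanol. The model called 8 of the 9 lower and none higher, against 8.1% and 8.39% of all genes; since this contrast chose the genes, nothing is read from these counts. At 6 h the differences ran from -0.55 to 0.05 with a median of -0.33, no gene was called in either direction (4.39% of all genes were called lower and 4.67% higher), and only the groups of Chac1 did not overlap (5.31% of all genes had Dex wholly below).

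**Figure D1:**
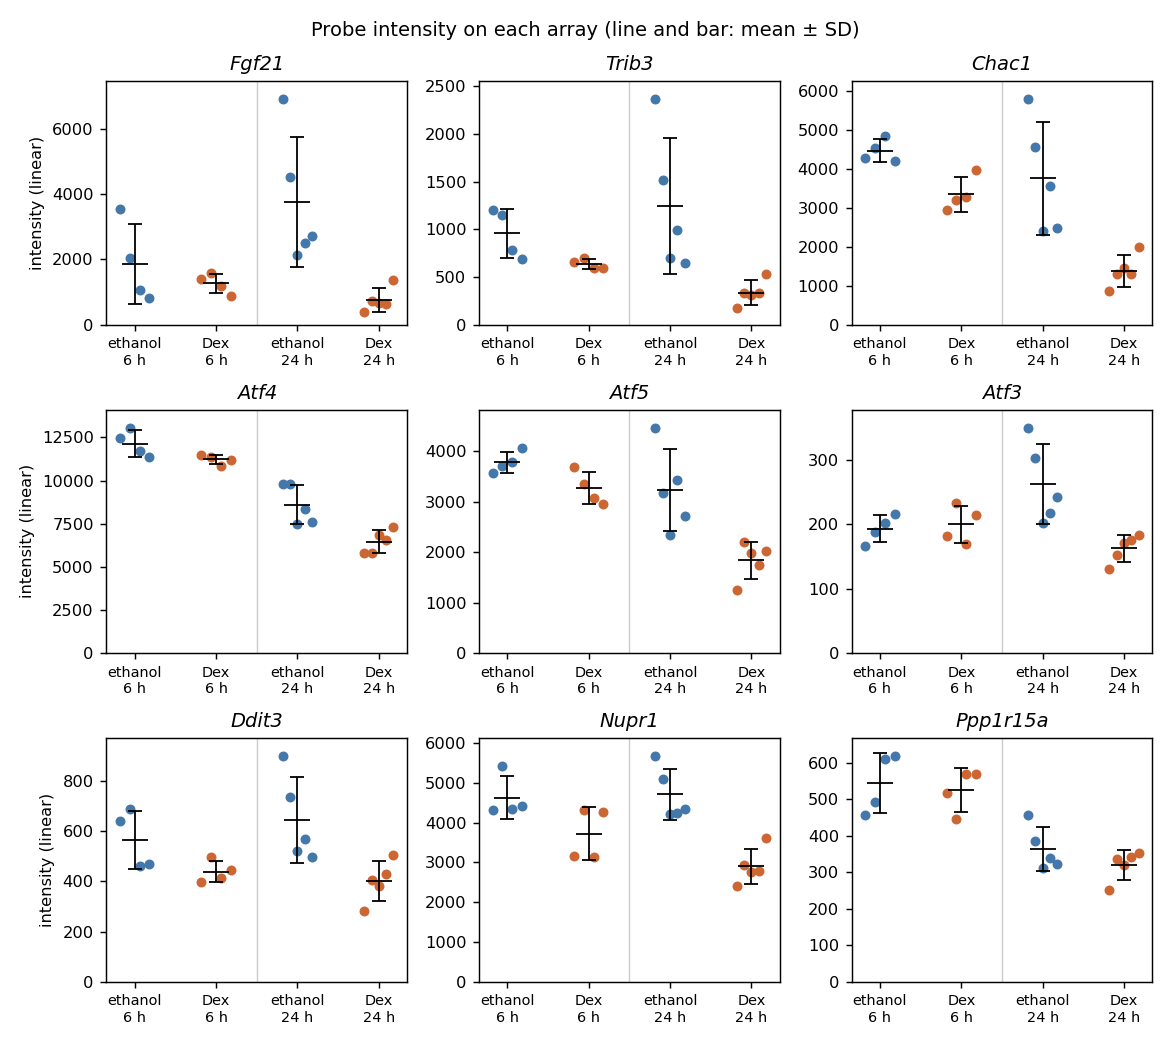
Linear intensity of the brightest probe of each of the 9 genes (y axis, starting at 0) on every array, by group, with the mean and SD as line and bar. In the 24 h groups the Dex points of 7 genes lie wholly below the ethanol points, and overlap remains in Ddit3 and Ppp1r15a; at 6 h only Chac1 separates.

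Atf4 itself, the messenger of the central regulator, read 9782, 9816, 7474, 8347 and 7627 on the 5 ethanol arrays at 24 h and 5831, 5798, 6821, 6582 and 7328 on the 5 Dex arrays. The highest Dex array lay just under the lowest ethanol array. The means were 8609 ± 1135 (SD, n = 5) with ethanol and 6472 ± 658 (SD, n = 5) with Dex, a log2 difference of -0.41 (SE 0.08). At 6 h the groups overlapped, with 12142 ± 765 and 11239 ± 271 (SD, n = 4 each), a difference of -0.11 (SE 0.09). A second, dimmer Atf4 probe showed more. It read 428, 442, 412, 424 and 368 with ethanol and 245, 242, 247, 254 and 271 with Dex at 24 h, a difference of -0.72 (SE 0.09) with narrow groups far apart. At 6 h this probe read 535, 614, 776 and 707 with ethanol and 400, 408, 467 and 580 with Dex, a difference of -0.51 (SE 0.10) in groups that overlapped through 1 Dex array. The probe that stands for the gene thus showed the smaller difference at both times; what sets the probes apart was not tested.

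Atf5, a close relative of ATF4 that takes part in the mitochondrial stress response, read 4469, 3176, 2350, 3422 and 2726 with ethanol and 1244, 2195, 1986, 1746 and 2019 with Dex at 24 h. The groups did not overlap, and the difference was -0.80 (SE 0.14). At 6 h it was -0.21 (SE 0.15), with 3785 ± 206 and 3272 ± 324 (SD, n = 4 each) in overlapping groups. Atf3, an early-induced repressor of the same family, read 350, 303, 202, 218 and 243 with ethanol and 131, 152, 171, 175 and 184 with Dex at 24 h, again without overlap, a difference of -0.67 (SE 0.12). Its 6 h value of 0.05 (SE 0.14) was the only one of the set above 0, and it changed sign without ethanol replicate 1 (-0.02) or without Dex replicate 2 (-0.03).

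Ddit3 encodes CHOP, the factor that carries prolonged stress towards cell death. Its brighter probe read 899, 736, 522, 567 and 497 with ethanol and 283, 405, 381, 431 and 505 with Dex at 24 h. One Dex array lay above the lowest ethanol array, so the groups overlapped; the difference was -0.67 (SE 0.15), or -0.42 without the 2 arrays numbered 1. At 6 h this probe gave -0.35 (SE 0.17), from 564 ± 116 to 438 ± 42.5 (SD, n = 4 each). The dimmer Ddit3 probe was already apart at 6 h, with 374, 469, 339 and 323 on the ethanol arrays against 246, 214, 216 and 225 on the Dex arrays. Its difference was -0.72 (SE 0.13) at 6 h and -0.79 (SE 0.12) at 24 h, so the probes of this gene differed in their 6 h values more than in their 24 h values.

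Nupr1, a small stress-induced chromatin protein, read 5673, 5086, 4227, 4232 and 4335 with ethanol and 2402, 2932, 2762, 2794 and 3617 with Dex at 24 h. All Dex arrays were below all ethanol arrays, with a difference of -0.70 (SE 0.11). At 6 h it was -0.33 (SE 0.12), from 4629 ± 534 to 3722 ± 665 (SD, n = 4 each): 3 of the 4 Dex arrays, at 3166, 3128 and 4266, lay below the lowest ethanol array at 4316, and the remaining one, at 4329, lay just above it. Over all 45281 probes fitted together, the dimmer probes of Atf4 and Ddit3 were the 2 of 13 called lower at 6 h, where 3.28% of all probes were; at 24 h 12 of 13 were, against 6.22%.

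**Figure D2:**
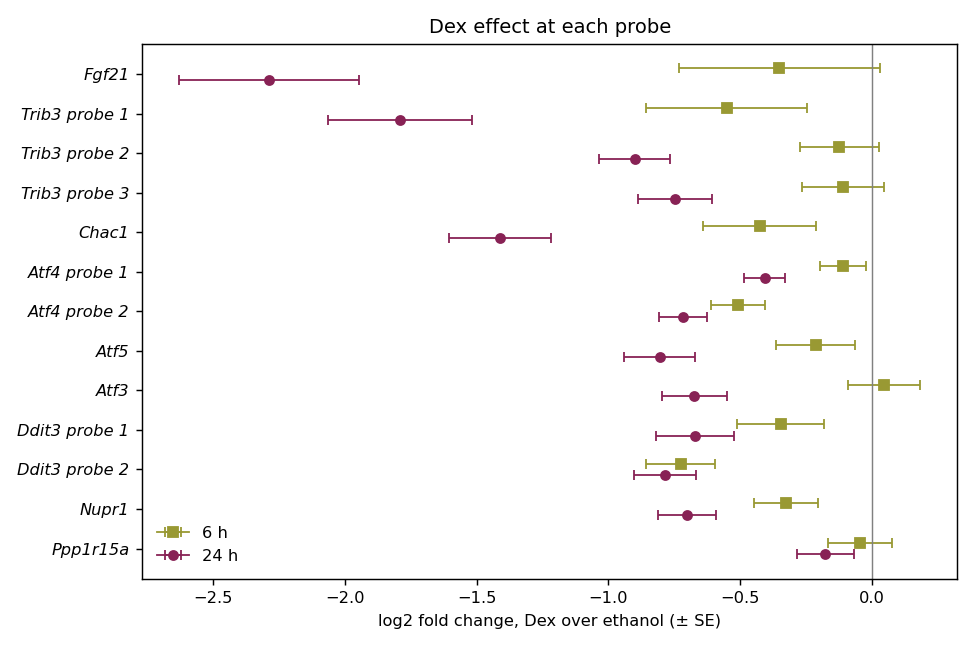
Log2 fold change of Dex over ethanol (x axis, ± SE, from a fit over all probes) at each of the 13 probes of the 9 genes, at 6 h (squares) and 24 h (circles); probes of a gene are numbered by brightness. The 24 h values run from -2.29 for Fgf21 to -0.18 for Ppp1r15a, and the second probes of Atf4 and Ddit3 stand at -0.51 and -0.72 already at 6 h.

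Among the targets, Trib3 encodes a pseudokinase that feeds back on ATF4 and CHOP and can bind the kinase Akt. Its intensities at 24 h were 2366, 1520, 698, 995 and 645 with ethanol and 173, 338, 309, 336 and 535 with Dex. The groups were apart, though the lowest ethanol array and the highest Dex array differed by little beside the range within ethanol. The means were 1245 ± 716 and 338 ± 129 (SD, n = 5 each) and the difference -1.79 (SE 0.28), a ratio of 3.46 between ethanol and Dex. The other 2 Trib3 probes gave -0.90 (SE 0.13) and -0.75 (SE 0.14). Both read close to the array median with Dex, the brighter of them at 95.5 ± 13.9 (SD, n = 5), and the groups of the dimmest one overlapped. The mean of the 3 probes gave -1.15. At 6 h the brightest probe gave -0.55 (SE 0.31), from 958 ± 261 to 636 ± 50.4 (SD, n = 4 each), with overlap.

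Chac1 encodes an enzyme that degrades glutathione. It read 5789, 4564, 2394, 3559 and 2479 with ethanol and 856, 1305, 1453, 1296 and 1988 with Dex at 24 h, without overlap. The difference was -1.41 (SE 0.20), a ratio of 2.66. At 6 h it was the only gene of the 9 whose brightest probe separated the groups: 4285, 4530, 4852 and 4211 with ethanol against 2934, 3194, 3274 and 3967 with Dex, a difference of -0.43 (SE 0.22). That SE includes the wider 24 h spread. The log2 SD of Chac1 was 0.09 with ethanol and 0.18 with Dex at 6 h, and 0.55 and 0.44 at 24 h. Ppp1r15a, whose product GADD34 brings the phosphatase that reverses eIF2 phosphorylation, moved least. It read 457, 384, 311, 340 and 321 with ethanol and 250, 336, 319, 341 and 352 with Dex at 24 h, in groups that overlapped. The difference was -0.18 (SE 0.11); it was -0.09 without ethanol replicate 1 or without Dex replicate 1 and -0.00374 without both. At 6 h it was -0.05 (SE 0.12), from 544 ± 81.7 to 525 ± 59.0 (SD, n = 4 each), and it was above 0 (0.01, 0.02 and 0.03) without ethanol replicate 3, ethanol replicate 4 or Dex replicate 2.

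Fgf21, the hormone that acts through FGF receptors and the co-receptor beta-Klotho, read 6905, 4513, 2137, 2512 and 2711 on the ethanol arrays at 24 h and 382, 734, 674, 630 and 1374 on the Dex arrays. The lowest ethanol array was above the highest Dex array. The difference of -2.29 (SE 0.35) is a ratio of 4.88 between ethanol and Dex. At 6 h the ethanol arrays read 3534, 2038, 1071 and 807, a range that contained all 4 Dex arrays at 1408, 1575, 1201 and 882. The 6 h difference was -0.35 (SE 0.39); it was 0.04 without ethanol replicate 1, -0.23 without ethanol replicate 2, -0.54 without ethanol replicate 3, -0.67 without ethanol replicate 4 and -0.19 without Dex replicate 4, so its size and sign rest on single arrays. The Dex difference at 24 h exceeded that at 6 h by -1.94 (SE 0.52) in Fgf21, -1.24 (SE 0.42) in Trib3, -0.99 (SE 0.29) in Chac1 and -0.72 (SE 0.19) in Atf3, given as description.

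Set beside the promoter letters, the 5 genes with a TGATGNAA match had 24 h differences of -2.29 (Fgf21), -1.79 (Trib3), -1.41 (Chac1), -0.70 (Nupr1) and -0.67 (Atf3). The other 4 measured genes had -0.80 (Atf5), -0.67 (Ddit3), -0.41 (Atf4) and -0.18 (Ppp1r15a). The sets overlapped in range, and this grouping was made after the values were seen.

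Arrays of the same group also differed widely in these genes; the array values at 24 h were among those known when the genes were chosen. In the 24 h ethanol group the SD of log2 intensity was 0.79 for Trib3, 0.70 for Fgf21 and 0.55 for Chac1, against a median of 0.09 over the 9529 genes at or above the median intensity. Trib3 ranked 1, Fgf21 3 and Chac1 7 among these genes from the largest SD, and Ddit3, Atf5 and Atf3 ranked 31, 37 and 47. In the 24 h Dex group Fgf21 ranked 2, Trib3 5 and Chac1 14. Between the extremes of the 24 h ethanol arrays, Trib3 differed 3.67-fold and Fgf21 3.23-fold, so the spread within a treatment was of the same order as the difference between treatments. At 6 h this was so of Fgf21 in the ethanol group, which ranked 1 with an SD of 0.96 and a 4.38-fold range, and of Trib3, which ranked 57; Chac1 (SD 0.09), Atf4 (0.09) and Atf5 (0.08) lay below the median SD of 0.12. These are descriptions of the deposited values; no test was made of them.

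The same arrays were extreme in most of the genes. At 24 h ethanol replicate 1 was the highest ethanol array in 8 of the 9 genes (20.1% of all genes had it highest), and Dex replicate 1 the lowest Dex array in 8 (22.1% of all genes). Dex replicate 5 was the highest Dex array in 8 (21.7% of all genes) and ethanol replicate 3 the lowest ethanol array in 7 (19.7% of all genes). The mean log2 level of the 9 genes, set against the ethanol mean, was 0.57, 0.24, -0.39, -0.12 and -0.30 on the ethanol arrays and -1.49, -0.96, -0.96, -0.97 and -0.58 on the Dex arrays. Over all genes the deviations of the 2 arrays numbered 1 from their group means correlated at -0.928, so their opposite extremes are not separate observations. Without both, 7 of the 9 genes had groups that did not overlap, where 10.9% of all genes had a Dex group of 4 wholly below 4 ethanol arrays, the median was -0.54, and the values were -1.82 (SE 0.33) for Fgf21, -1.29 (SE 0.21) for Trib3 and -1.08 (SE 0.16) for Chac1.

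**Figure D3:**
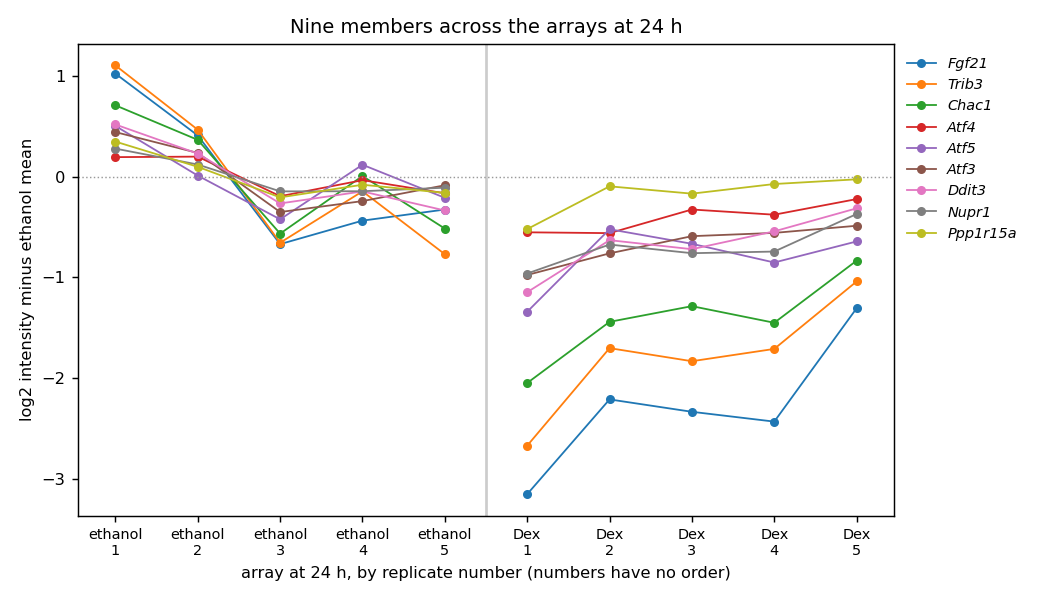
Log2 intensity of the 9 genes on the 10 arrays at 24 h, each minus that gene's ethanol mean (y axis); lines join the values of a gene within a group, and replicate numbers carry no order. Ethanol replicate 1 is highest and Dex replicate 1 lowest in 8 of the 9 genes, and the Fgf21, Trib3 and Chac1 lines lie lowest with Dex.

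The genes whose profile over the 10 arrays at 24 h was most like that of Fgf21 were found by the root mean square difference of centred log2 values among 19056 genes. They were Trib3 (0.32), the glutamate transporter gene Slc1a3 (0.46), the mitochondrial folate enzyme gene Mthfd2 (0.48), Chac1 (0.50), the matrix protein gene Spon2 (0.59) and the small proline-rich gene Sprr2k (0.61). The further members of the set ranked 33 (Atf5), 44 (Ddit3), 49 (Atf3), 50 (Nupr1), 162 (Atf4) and 458 (Ppp1r15a). The measure depends on the size of a change as well as on its shape. The 24 h values were known when the members were chosen, so nothing is read from the members' ranks. At 6 h Slc1a3 (-1.30, SE 0.27) and Spon2 (-1.04, SE 0.19) already fell, while Mthfd2 read 4292 ± 236 with ethanol and 4520 ± 255 with Dex (SD, n = 4 each). The 6 h groups of Slc1a3 overlapped, from 533.5 to 1874.9 with ethanol and from 399.8 to 598.5 with Dex, and those of Spon2 did not.

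Other genes of the pathway were taken from 8 lists of 92 genes, 87 of which were measured. Across them 32 (36.8%) fell and 7 (8.05%) rose at 24 h, against 8.1% and 8.39% of all genes. At 6 h 5 (5.75%) fell and 8 (9.2%) rose, against 4.39% and 4.67% of all genes, so the share that rose at 24 h and the share that fell at 6 h were near those of all genes. Without the 2 arrays numbered 1, 23 fell at 24 h, where 6.51% of all genes did. The members are not among the 87. The lists, like the members, were chosen with earlier results of these data known. These counts, and those and the p-values of the single lists below, are therefore a description and not independent support. Upstream, the kinases that phosphorylate eIF2 and the subunits of eIF2 and its exchange factor eIF2B were called in few cases: of 14 measured at 24 h, 1 fell (Eif2s2, the beta subunit of eIF2, -0.48, SE 0.08, limma adjusted p = 0.000111) and 1 rose (Eif2ak1, the haem-sensing kinase, 0.37, SE 0.06, limma adjusted p = 0.000203), with a median of 0.06. At 6 h 2 rose, Eif2b3 (0.22) and Ppp1r15b (0.23), the constitutive partner of the eIF2 phosphatase. Of the 27 alternatives run, the call of Eif2b3 was lost in 9 and that of Ppp1r15b in 14. In this list of 14, 3 genes (Eif2ak3, Eif2ak4 and Gcn1) read under 2 times the array median at 24 h, where a fall can hardly be seen. Eif2s1 was not measured.

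The genes of amino acid and one-carbon synthesis were mostly lower at 24 h. Of 9 measured, 8 fell and none rose, with a median of -0.70, and none was called at 6 h (median -0.02). Psph, which was not called, and Cth, which fell, read under 2 times the array median at 24 h. Mthfd2 read 4433 ± 2025 with ethanol and 1619 ± 616 with Dex (SD, n = 5 each) and so fell by 1.44 on the log2 scale (SE 0.23, limma adjusted p = 0.000101). Asns, the asparagine synthetase, fell by 1.13 (SE 0.20), and Shmt2, the mitochondrial serine hydroxymethyltransferase, by 0.70 (SE 0.13). These genes fell more at 24 h than at 6 h by the test of the difference, which called 2.48% of all genes in this direction and 2.46% in the other: limma adjusted p = 0.0128 for Mthfd2, 0.0447 for Asns and 0.0450 for Shmt2. Without both arrays numbered 1 at 24 h, 5 of the 9 fell and the differences of Asns and Shmt2 between the times were not called. Those of both genes were also lost when ethanol replicate 1, 2 or 4 or any Dex array of 6 h was left out, and without ethanol replicate 1, 2 or 4 or Dex replicate 1, 2, 3 or 4 of 24 h; that of Asns was lost without ethanol replicate 3 of 6 h too.

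Of 12 aminoacyl-tRNA synthetase genes, which charge tRNAs for translation, 10 fell at 24 h and none at 6 h, with medians of -0.35 and 0.07. The other 2, Cars and Yars, read under 2 times the array median at 24 h, where a fall can hardly be seen. Aars fell by 0.63 (SE 0.09, limma adjusted p = 4.05e-05), Mars1 by 0.48 and Lars by 0.45. The test of the difference between times called 6 of the 12, Aars at adjusted p = 0.00754, Mars1 at 0.00472 and Lars at 0.00322 among them. Of 8 amino acid transporter genes, Slc1a4 (-0.61, SE 0.09) and Slc3a2 (-0.32, SE 0.08) fell at 24 h. Of the 8, 5 read under 2 times the array median at 24 h, Slc3a2 among them, where a fall can hardly be seen. Without both arrays numbered 1 Slc3a2 was not called (limma adjusted p = 0.0501). At 6 h Slc38a2, a transporter of neutral amino acids, fell by 0.34 (SE 0.09), and its 24 h value of -0.21 did not pass the test. Its 6 h groups overlapped, and the 6 h call was lost in 9 alternatives. Among these were the fits without ethanol replicate 3 or 4 or Dex replicate 1 or 2 of 6 h.

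Further ATF4 and CHOP targets and partners did not move together. Of 16 measured, 4 fell and 5 rose at 24 h, and 2 fell and 5 rose at 6 h. Of the 16, 4 read under 2 times the array median at 24 h, Sesn2 among them at 137 with ethanol and 102 with Dex. Vegfa, the angiogenic growth factor, fell by 0.52 (SE 0.06) at 6 h and by 0.85 (SE 0.06, limma adjusted p = 1.33e-10) at 24 h. Herpud1, an endoplasmic reticulum degradation factor, fell by 0.44 (SE 0.08) at 24 h and Sesn2, an mTORC1 inhibitor, by 0.41 (SE 0.10); Sesn2 was not called without both arrays numbered 1 (limma adjusted p = 0.0606), when 2 genes of the list fell. Ddit4, another mTORC1 inhibitor, rose by 1.84 (SE 0.17) at 6 h and by 1.56 (SE 0.15) at 24 h. Vldlr, a lipoprotein receptor, rose by 1.38 and 1.20, and the pro-apoptotic Bbc3 by 0.66 and 0.32. Ndrg1 fell by 0.41 (SE 0.10) at 6 h and had 0.09 at 24 h.

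Of 14 genes of the endoplasmic reticulum chaperones and the other arms of the unfolded protein response, 4 fell at 24 h: the stress sensors Ern1 (-0.34) and Atf6 (-0.24), the co-chaperone Dnajb9 (-0.24) and Xbp1 (-0.20), and the median was -0.08. Of the 14, 5 read under 2 times the array median, and Atf6, at 104 with ethanol and 87.9 with Dex, was one of them. The mean of its probes gave -0.03 for Ern1, which was then not called. Of 7 mitochondrial chaperones and proteases, the proteases Lonp1 (-0.32, SE 0.06) and Yme1l1 (-0.37, SE 0.07) and the chaperone Hspa9 (-0.21, SE 0.06) fell at 24 h. On the receiving side, all 7 measured genes for receptors of FGF21 and GDF15 read under 2 times the array median at 24 h, so a fall could hardly have been seen. Ret rose by 0.22 (SE 0.07) at 24 h from a reading of 83.5 ± 3.42, and Fgfr2 by 0.29 (SE 0.08) at 6 h. The call of Hspa9 was lost in 4 alternatives, that of Ret in 9 and that of Fgfr2 in 11, where the mean of its probes gave 0.07. Single arrays decided some: Ret was not called without ethanol replicate 1 or 2 or Dex replicate 1, 3 or 4, and Fgfr2 not without ethanol replicate 2, 3 or 4 or Dex replicate 1, 2 or 3.

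Calls of the 87 genes at 6 h were few and leaned on single arrays. Of the 5 that fell, 2 were called without ethanol replicate 3 and 3 without ethanol replicate 4 or without Dex replicate 1, 2 or 3. Of the 8 that rose, 4 were called without ethanol replicate 3, ethanol replicate 4 or Dex replicate 2, and 5 without Dex replicate 1 or 3. The calls of Ddit4, Vldlr, Bbc3 and Vegfa at 6 h held under all 27 alternatives run.

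**Figure D4:**
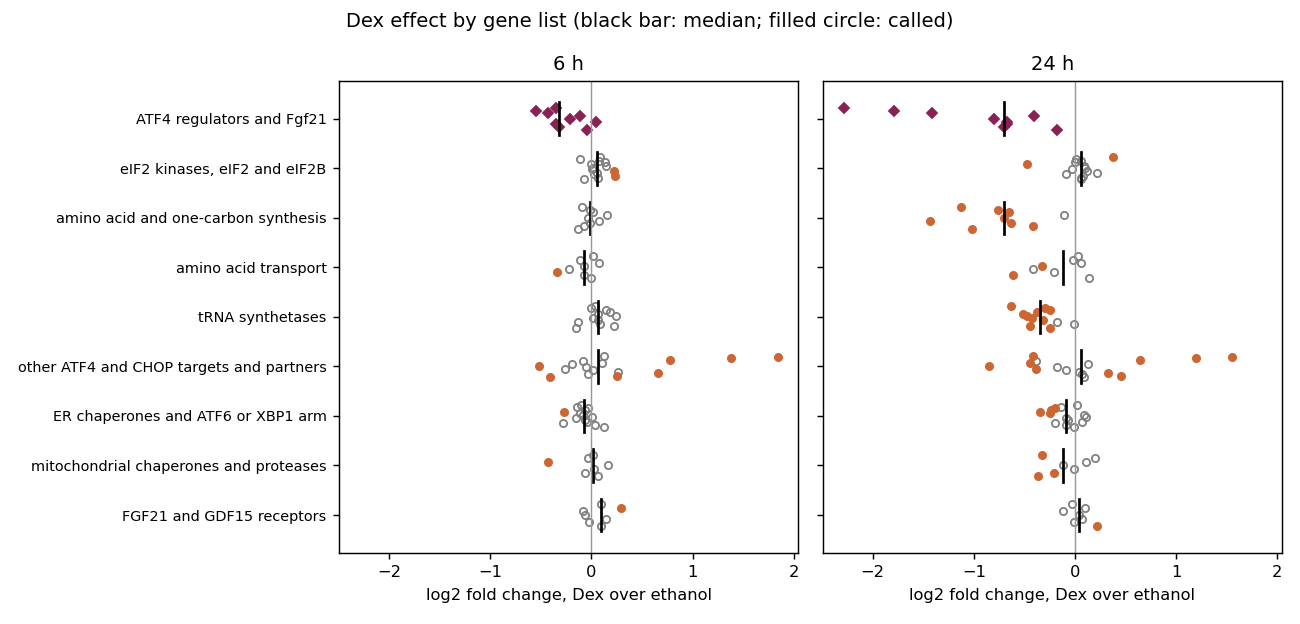
Log2 fold change of Dex over ethanol (x axis) at 6 h and 24 h for the 9 genes (diamonds) and for each pathway list (circles, filled where called), with the median as a bar. At 24 h 8 of 9 genes of amino acid and one-carbon synthesis and 10 of 12 tRNA synthetase genes are filled and below 0, while at 6 h none of either list is.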

How the data were processed

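Biotin-labelled cRNA of 18 samples was hybridised to Illumina mouse whole-genome arrays. The deposited values are linear probe intensities, for which the submitters' processing notes name lumi; which background correction and normalization the authors chose is not stated in the labels. Scanner files and detection p-values were not used here, so which probes lie above background is not known. Array number limits the precision. Of 45281 probes, 34885 had 1 gene symbol, 18 several and 10378 none; symbols were updated through gene identifiers for 34807 probes. Here log2 of the intensity was taken (pseudocount 0), and the brightest probe by mean log2 value stood for each of 19057 genes. Group means over all 18 arrays were fitted with limma 3.58.1 in R 4.3.3, with Benjamini-Hochberg adjustment over all genes. The fit was also run on simulated data with independent noise on each array. Such data lack the dependence between the real arrays, so they do not test the p-values under it. Deviations within groups occupy fewer directions than the arrays allow (1 of 6 at 6 h and 3 of 8 at 24 h each held under 0.01% of the spread of bright genes), which makes p-values too small; a fit with these as covariates is an alternative. Named genes were the 10 members, up to 3 called genes per list, time and direction by smallest p, the 6 genes most like Fgf21 and 4 receptor targets; other genes named were chosen after their values were seen. Members and lists were chosen with earlier results of these data known.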

Additional observations from a re-analysis of the deposited data

Results flagged for a closer look

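Among 46 named genes in 4 groups, 184 sets of arrays were examined for an array far from the others, and 5 (2.72%) held one by Dixon's 95% criterion; chance flags about 5%. At 24 h with Dex, replicate 1 was the lowest for Ppp1r15a (250, the next array at 319) and for Sesn2 (85.7, the next at 102). In the 24 h ethanol group replicate 5 was the highest for Atf6 (110, the next at 103) and replicate 1 for Fgfr2 (101, the next at 89.1). In the 6 h ethanol group replicate 2 was the highest for Nupr1 (5427, the next at 4424).

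The Dex effect differed between the times by limma's interaction test in 16 of the 37 named genes that are not members, against 2.48% of all genes in the lower and 2.46% in the higher direction. Most of the 37 were named for a small p at 1 time or for likeness to Fgf21 at 24 h, which favours such a difference, so nothing is read from the count. On the log2 scale, the effect at 24 h minus that at 6 h was -1.90 for Sprr2k (limma adjusted p = 8.08e-06), -1.51 for Mthfd2, -1.03 for Asns, -0.72 for Mars1, -0.67 for Shmt2, -0.67 for Aars, -0.66 for Lars and -0.55 for Herpud1. It was -0.54 for Sesn2, -0.53 for Slc1a4, -0.53 for Fkbp5, -0.47 for Eif2s2, -0.43 for Yme1l1, -0.34 for Vegfa, -0.34 for Lonp1 and 0.49 for Ndrg1. With the lowest value of each array subtracted and 16 added, 6 of the 16 were called, and Fkbp5 was not among them. With the near-empty directions as covariates 7 were called, and 8 with the replicate block or without both arrays numbered 1 at 24 h.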

How the results depend on the processing

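Of the 9 measured genes, 8 were called lower at 24 h in each of the 27 alternatives run except array weights, which called 9; the values stayed below 0 in all. None was called at 6 h except 2 when probes of a gene were averaged and 1 with the arrays of that time alone. With the near-empty directions as covariates, 1694 genes were called at 24 h, 850 at 6 h and 232 for the difference between times, against 3142, 1726 and 942. Array weights gave 5552 at 24 h and 1079 at 6 h, with 11 other pathway genes higher at 24 h, and the arrays of 6 h alone gave 908. The other pathway genes called lower at 6 h, 5 in the main setting, numbered 1 with the mean of probes, 2 with the lowest value subtracted, with the covariates or with array weights, and 3 with that time alone; those called higher, 8, numbered 5 with the mean of probes or the replicate block and 4 in the other four. Leaving out 1 array gave 2 to 6 lower and 4 to 8 higher. The replicate block gave 2255, 1220 and 532 calls. Same-numbered arrays correlated in their deviations at 0.26, 0.15, -0.08 and 0.05 at 6 h and at -0.93, -0.76, -0.73, -0.33 and -0.19 at 24 h. At 24 h same-numbered arrays thus deviated in opposite directions, most strongly those numbered 1, 2 and 3, and these were not independent of each other. What a shared number stands for was not tested. The cause of these shifts was not tested. Probes near the array median, such as the 2 dimmer Trib3 probes, limit what can be seen of low expression.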
